A study of Mus musculus with 4 samples.

Results

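The LacO viewpoint is the stretch of chromosome 15 that carries an array of LacO operators in engineered mouse embryonic stem cells (mESCs), followed here along the whole captured region of that chromosome. Its members were all pairs of 6.4-kb bins in which 1 bin was the LacO bin or its neighbour on either side (chr15:11488001-11507200, mm9) and the other lay anywhere in the region chr15:10278401-13196800. The rule gave 1365 of the 104196 bin pairs of the region, and 1362 of them could be balanced. Positions below are upstream where they have lower coordinates than LacO and downstream where they have higher ones.

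Mammalian chromosomes fold into topologically associating domains (TADs), within which sequences touch more often than across the domain boundaries. The ring-shaped cohesin complex is thought to extrude chromatin loops until it meets CTCF, a DNA-binding protein that halts it in an orientation-dependent way. Loops therefore tend to form between CTCF sites that point towards each other, and acute loss of the cohesin subunit RAD21 weakens domains and loops within hours.

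All 4 libraries came from clonal E14 mESC lines that shared the same background. A TetO array and the LacO array were inserted heterozygously, on the same allele, into a TAD from which the internal CTCF sites had been deleted earlier, and both copies of Rad21 were fused to a HaloTag-FKBP degron. Line 1B1 carried a cassette of 3 CTCF sites (3xCTCF) next to each array in convergent orientation and no resistance-gene promoters. Line 1A2 lacked both the 3xCTCF cassettes and the promoters. Line 1F4 lacked the 3xCTCF cassettes but kept Pgk1 promoters of the resistance cassettes beside the arrays; this difference comes from the methods of the study, as the sample labels describe 1F4 and 1A2 alike. The remaining library was 1B1 treated for 2 h with 500 nM dTAG-13, which sends the tagged RAD21 to degradation; the other libraries were untreated. Each group was 1 clone and 1 library, so no difference between libraries below has a replicate check, and differences between clones or cultures cannot be told apart from those of genotype or treatment. Reads from the allele with arrays and the allele without them were mixed in every value, and the operator arrays, absent from the mm9 sequence, were seen only through the mouse sequence around them.

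The insertion sites were found by matching the guide sequences of the integrations to mm9, and they are shown because they fix where the viewpoint and its partner lie. Capitals mark the NGG motif next to each target.
LacO target, chr15:11496892-11496914, plus strand: atgagatgctcggcttccatAGG
TetO target, chr15:11647356-11647378, plus strand: aaatccttgtcctggagtaaTGG
Each guide sequence had 1 match on chromosomes 1, 15 and X. The LacO cut lay after base 11496908, between the nearest protein-coding genes Tars, 167.5 kb upstream, and Npr3, 272.7 kb downstream, and no annotated gene overlapped it. The TetO cut lay 150.464 kb downstream of the LacO cut, 23 bins away. Minima of insulation in the mean of 1A2 and 1F4 placed the domain boundaries in the bins chr15:11334401-11340800 and chr15:11891201-11897600, 25 bins upstream and 62 bins downstream of the LacO bin. The viewpoint therefore sat off centre in a domain of 556.8 kb.

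The upstream boundary bin held exact matches to the CTCF core motif, both on the minus strand, which points away from LacO. They are printed in the orientation of the motif with 10 flanking bases on each side, and capitals mark the match.
Upstream boundary, chr15:11336795-11336806, minus strand: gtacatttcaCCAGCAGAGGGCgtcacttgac
Upstream boundary, chr15:11337309-11337320, minus strand: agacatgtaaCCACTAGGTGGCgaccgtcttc
Both strands were searched, and 9 of the 456 bins of the region (1.974%) held a match. None of the 10 matches lay between the boundary bins, and the downstream boundary bin held none. A match of letters in the reference is a description of the sequence and says nothing about binding, nor about the sites deleted in these lines.

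The files held balanced signal, from which whole reads were recovered. The region on chromosome 15 held between 1222239 and 1558596 read pairs per library, and the LacO viewpoint took 1.01% to 1.12% of them. In 1A2 the viewpoint pairs held 12909 reads, in 1F4 17030, in 1B1 13744 and after degradation 13884. At separations of at least 3 bins, the reads numbered 7528, 9665, 8381 and 6975 in the same order. The viewpoint bins held 11, 10 and 11 GATC sites (where MboI cuts in the assay), fewer than the median of 15 over the region. Contact is given below as observed/expected, the balanced signal divided by the mean of the region at the same separation, averaged over the 3 viewpoint bins and a target window of 3 bins (19.2 kb). A value of 1 is therefore the average contact at that distance. Intervals are 95% intervals of the read counts and cover counting error only, since each group was 1 library.

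Along the region, LacO contacted the downstream part of its domain more than average and the sequence beyond the upstream boundary less than average. Tiled outwards, 150 windows fitted into the region, and 70 of them, 37 upstream and 33 downstream, had a mean of at least 20 reads over the 4 libraries. In the 20 windows of the domain downstream of LacO, the median observed/expected was 1.33 for 1A2, 1.40 for 1F4, 1.35 for 1B1 and 1.22 after degradation. In the 8 windows of the domain upstream of LacO, it was 0.921, 0.902, 0.810 and 1.02 in the same order. The library with degraded cohesin was thus the lowest on the downstream side and the highest on the upstream side of the domain. Beyond the upstream boundary, the medians over 29 windows were 0.564, 0.686, 0.669 and 0.929. From the downstream boundary bin outwards, those over 13 windows were 0.891, 0.830, 0.876 and 0.568. The order of the libraries was turned between these outer intervals as well.

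**Figure D1:**
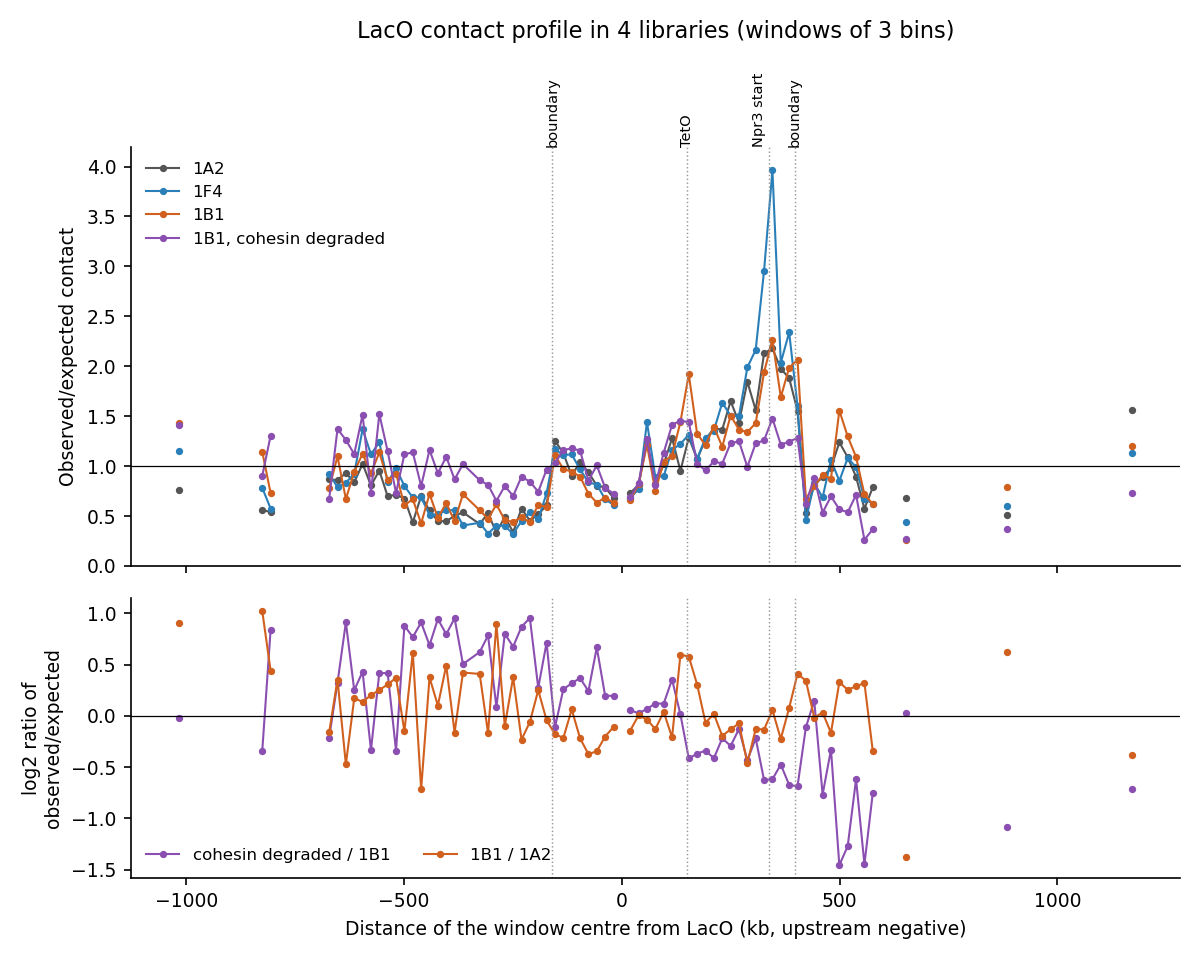
Top, observed/expected contact of LacO with the 70 windows of 3 bins past the read minimum, against the distance of the window centre from LacO in kb, with 1 line per library. Bottom, log2 ratios of the same windows for 2 of the contrasts. Contact rose from LacO towards the Npr3 start and the downstream boundary, where 1F4 reached 3.96, and dropped beyond that boundary. Across the upstream boundary it dropped in the untreated libraries, with no clear step after cohesin degradation.

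The profile changed in steps at the boundaries. The window 153.6 kb upstream of LacO, just inside the upstream boundary, stood at 1.26 for 1A2, 1.17 for 1F4, 1.11 for 1B1 and 1.03 after degradation. The next window outwards, centred 172.8 kb upstream over Tars, the gene of a threonyl-tRNA synthetase, stood at 0.607, 0.730, 0.589 and 0.966. The step between these neighbouring windows was thus clear of the counting intervals in the untreated libraries, but not after cohesin degradation. On the downstream side, the window centred 403.2 kb from LacO, which starts with the boundary bin, stood at 1.55 for 1A2, 1.60 for 1F4, 2.06 for 1B1 and 1.28 after degradation. The following window, 422.4 kb away over Sub1, the gene of a transcriptional coactivator, stood at 0.532, 0.460, 0.674 and 0.624. Here the step was present in all 4 libraries, with no overlap of the intervals within any of them.

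The reads of the viewpoint were divided into 4 intervals by the boundaries and by LacO itself. The domain downstream of LacO took the largest share, 44.3% of reads for 1A2 (43.1% to 45.4%), 47.4% for 1F4 (46.4% to 48.4%), 44.0% for 1B1 (42.9% to 45.1%) and 37.1% after degradation (36.0% to 38.3%). The interval of 1F4 lay above those of 1A2 and 1B1, and that of the degraded library lay below all others. The domain upstream of LacO took 23.9% for 1A2, 22.6% for 1F4, 20.0% for 1B1 and 27.3% after degradation. In 1B1 the interval of this share (19.2% to 20.9%) lay below that of 1A2 (22.9% to 24.8%) and of 1F4 (21.7% to 23.4%). Both intervals outside the domain were larger in 1B1 than in the other untreated lines, with 20.0% of reads beyond the upstream boundary (17.8% for 1A2 and 17.3% for 1F4) and 16.0% beyond the downstream boundary (14.1% and 12.8%). The domain as a whole held 68.1% of reads for 1A2, 69.9% for 1F4, 64.0% for 1B1 and 64.4% after degradation, so that 1B1 before and after degradation overlapped in this share (63.0% to 65.1% and 63.3% to 65.5%). On degradation the balance of the sides moved. The upstream share was 40.02% for 1B1 (39.0% to 41.1%) and 50.8% after degradation (49.6% to 51.9%). None of these shares is corrected for distance, and reads also moved towards short range. In 1B1, 8381 of 13744 viewpoint reads lay at least 3 bins apart, against 6975 of 13884 after degradation. How far this move shaped the shares was not tested. On balanced signal the upstream share was 40.1% for 1A2, 38.3% for 1F4, 38.6% for 1B1 and 48.8% after degradation, so the order of the last pair was kept.

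**Figure D2:**
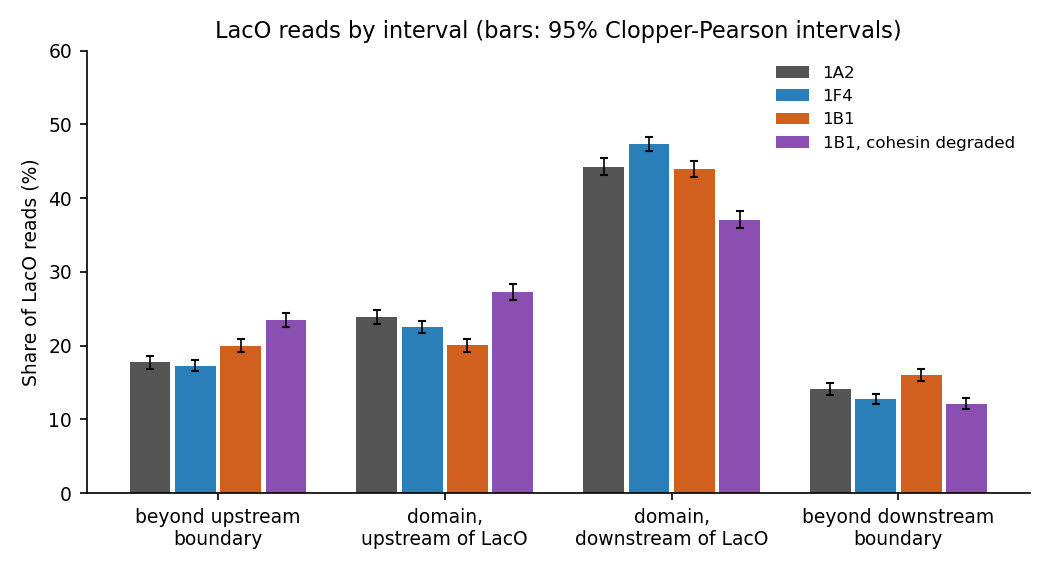
Share of LacO reads at least 3 bins from the viewpoint bin, in percent, in the 4 intervals set by the domain boundaries and LacO, with 1 bar per library and 95% Clopper-Pearson intervals of the reads. The share of the domain downstream of LacO was highest in 1F4 (47.4%) and lowest after degradation (37.1%).

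In bands of distance, LacO was ranked among the other viewpoints of the region. Downstream, the band from 200 to 400 kb holds the Npr3 gene and ends at the boundary, and its mean observed/expected was 1.75 for 1A2 (1.67 to 1.85), 2.13 for 1F4 (2.04 to 2.22), 1.64 for 1B1 (1.55 to 1.72) and 1.20 after degradation (1.11 to 1.29). Of the 391 viewpoints of the region with a full band, which overlap one another and include LacO, 45, 16, 53 and 105 had a higher value. In 1F4 LacO was thus nearer the top of the region than in any other library. Upstream, the same band lies wholly beyond the boundary, and the values were 0.447, 0.415, 0.511 and 0.809. There 359, 365 and 347 of the 391 viewpoints were higher in the untreated lines and 270 after degradation. In the untreated lines LacO contact was therefore among the lowest of the region towards one side and among the higher ones towards the other at equal distance. In the nearest band, 20 to 100 kb, the sides were closer, with 0.845, 0.795, 0.715 and 0.921 upstream and 0.951, 0.978, 0.932 and 0.972 downstream.

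The comparison of 1B1 with 1A2 asked what convergent CTCF sites beside the arrays did to the contacts of LacO. LacO contacted the TetO zone more, and its own upstream neighbourhood less, in 1B1. In the band from 20 to 100 kb upstream the log2 ratio of 1B1 over 1A2 was -0.24 (-0.37 to -0.11), and 435 of 438 viewpoints had a higher ratio; over 1F4 it was -0.15 (-0.28 to -0.03). In the band from 100 to 200 kb downstream, which holds TetO, the ratio was 0.22 over 1A2 (0.10 to 0.35) and 0.19 over 1F4 (0.07 to 0.31), and 21 and 51 of 422 viewpoints were higher. These 2 comparisons share the 1B1 library and are not independent. From 200 to 400 kb upstream, beyond the boundary, 1B1 stood 0.19 above 1A2 (-0.01 to 0.40) and 0.30 above 1F4 (0.11 to 0.49), so only the second interval lay off 0. From 200 to 400 kb downstream, over Npr3, the ratio of 1B1 over 1F4 was -0.38 (-0.48 to -0.28), and 383 of 391 viewpoints were higher; over 1A2 it was -0.10 (-0.21 to 0.01). From 400 to 800 kb downstream the ratios were 0.18 over 1F4 (0.03 to 0.33) and 0.14 over 1A2 (-0.02 to 0.30).

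At the TetO bin, the observed/expected contact with LacO was 1.05 for 1A2 (119 reads), 1.51 for 1F4 (212 reads), 1.85 for 1B1 (236 reads) and 1.57 after degradation (134 reads). The untreated lines were ordered 1A2, 1F4 and 1B1, with the interval of 1A2 (0.873 to 1.26) below those of the other two and the intervals of 1F4 (1.32 to 1.73) and 1B1 (1.62 to 2.10) overlapping. The log2 ratio of 1B1 over 1A2 was 0.81 (0.49 to 1.14), and 4 of 425 other windows at that separation had a higher ratio. Over 1F4 it was 0.29 (0.02 to 0.56), and 56 of 425 were higher. The log2 ratio of 1F4 over 1A2, both without CTCF cassettes, was 0.52 (0.19 to 0.86), with 8 of 425 higher, and it ranged with the window from 0.12 (a target of 9 bins) to 0.95 (the LacO bin alone), with intervals that included 0 for targets of 1 bin and of 9 bins. The ratio of degraded over untreated 1B1 was -0.24 (-0.55 to 0.08), an interval that includes 0. This depended on the scaling: the ratio was -0.68 without the expected value (-0.99 to -0.36) and -0.87 on unbalanced reads (-1.19 to -0.56). On these scalings the median over all windows was -0.37 and -0.38. The interval without the expected value included its median, and the interval on reads lay below its own. Since the arrays lay on 1 of 2 alleles, each ratio averages that allele with the one without arrays.

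The rise was spread over adjoining windows. The tiled window 134.4 kb downstream of LacO stood at 0.953 for 1A2, 1.22 for 1F4, 1.44 for 1B1 and 1.46 after degradation. The window 153.6 kb downstream, which starts with the TetO bin and so holds the far side of the insertion, stood at 1.29, 1.32, 1.92 and 1.44. In the latter, 1B1 lay above both other untreated lines, by 0.58 over 1A2 (0.31 to 0.85) and 0.55 over 1F4 (0.30 to 0.80), and the library with degraded cohesin lay 0.42 below 1B1 (log2 ratio -0.42, -0.70 to -0.13). The window 172.8 kb away stood at 1.07, 1.08, 1.32 and 1.02, again with 1B1 highest.

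Taken bin by bin, the TetO contact of the LacO bin alone was 0.921 for 1A2, 1.78 for 1F4, 2.09 for 1B1 and 1.60 after degradation, on 34, 70, 77 and 39 reads. The neighbour on the upstream side stood at 0.851, 1.13, 1.36 and 1.20, and that on the downstream side at 1.391, 1.631, 2.108 and 1.923. All 3 bins were thus lowest in 1A2 and highest in 1B1. Viewpoints moved along the domain in steps of 3 bins were highest at LacO among its neighbours in 1B1: the contact with TetO was 1.35 from 19.2 kb upstream of LacO, 1.85 from LacO, 1.64 from 19.2 kb downstream and 1.20 from 38.4 kb downstream. In 1A2 the same positions gave 1.24, 1.05, 1.39 and 0.897, with LacO below both neighbours. The upstream neighbour lay inside the 1A2 interval at LacO (0.873 to 1.26), and the downstream one lay above it. In 1F4 they gave 1.02, 1.51, 1.61 and 0.836, and after degradation 0.872, 1.57, 1.66 and 1.00, and in both the values at LacO and 1 step downstream were within counting error of each other. In 1B1 the value 1 step downstream likewise lay inside the interval at LacO (1.62 to 2.10), and the one 1 step upstream lay below it. A viewpoint at 153.6 kb upstream of LacO, next to the boundary, had a TetO contact of 2.54 in 1B1 against 1.57 in 1A2 and 1.42 in 1F4. At 115.2 kb upstream it was 1.92 in 1B1, 2.02 in 1A2 and 1.76 in 1F4. The log2 ratio of 1B1 over 1F4 was 0.29 at LacO, 0.55 and 0.41 at 38.4 and 19.2 kb upstream, and 0.03 and 0.52 at 19.2 and 38.4 kb downstream. Over 1A2 it was 0.81 at LacO and 0.06, 0.13, 0.24 and 0.42 at those positions. The excess over 1F4 was thus not highest at LacO.

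**Figure D3:**
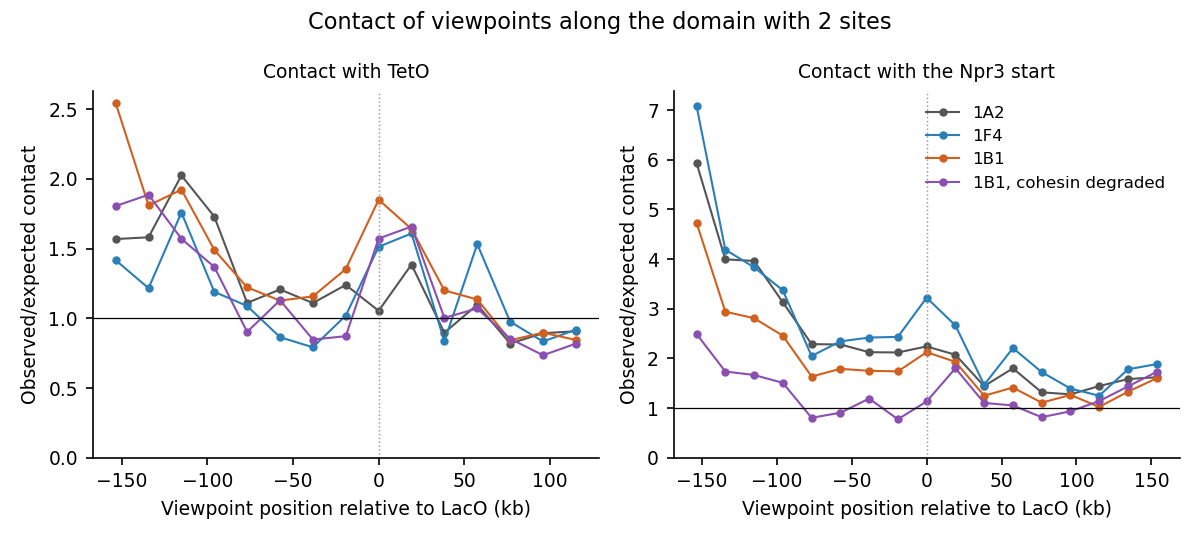
Observed/expected contact of viewpoints of 3 bins, moved along the domain in steps of 3 bins, with TetO (left) and with the Npr3 start (right), against the viewpoint's position relative to LacO in kb, with 1 line per library. In 1B1 the LacO position (0 kb) stood at 1.85 for TetO, and in 1F4 it stood at 3.22 for the Npr3 start.

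Counted over windows, few LacO contacts differed between 1B1 and the other untreated lines. Of the 70 LacO windows, 6 were at least 1.5-fold higher in 1B1 than in 1A2 (5.37% over all 15695 windows of the region) and 2 at least 1.5-fold lower (4.21%). Against 1F4, 3 were higher (5.54% of all) and 5 lower (4.11% of all). The balance of directions against 1F4 turned with the scaling, to 11 higher and 1 lower without the expected value (11.6% and 1.53% of all) and 10 and 2 on unbalanced reads (10.2% and 0.726% of all), where the median over all windows was 0.13. As reported, the shares among the 70 were between 2.86% and 8.57%, and with so few windows no excess at LacO is read from them. The median log2 ratio of 1B1 over 1A2 was 0.10 upstream and -0.02 downstream (0.01 over all windows), and that over 1F4 was -0.04 and -0.01 (0.02 over all). Among the 39 windows with a mean of at least 50 reads, the largest rise of 1B1 over 1A2 lay 288.0 kb upstream in Adamts12, a gene of a secreted metalloprotease, at 0.331 for 1A2, 0.405 for 1F4, 0.616 for 1B1 and 0.653 after degradation, on 41 to 59 reads. The largest falls were at 288.0 kb downstream in Npr3, with 1.85 for 1A2 and 1.34 for 1B1, and at 76.8 and 57.6 kb upstream inside the domain, with log2 ratios of -0.37 and -0.34.

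The comparison of 1F4 with 1A2 asked what retained promoters beside the arrays did to the contacts of LacO. In 1F4 LacO contacted the start of Npr3 more than in any other library. Npr3 codes for the natriuretic peptide receptor that clears these hormones from the circulation, and it is transcribed towards LacO from its start 338.521 kb downstream. At the window around that start (chr15:11827201-11846400), the observed/expected contact was 2.24 for 1A2 (158 reads), 3.22 for 1F4 (295 reads), 2.13 for 1B1 (166 reads) and 1.13 after degradation (55 reads). The interval of 1F4 (2.87 to 3.61) lay above those of 1A2 (1.91 to 2.62) and 1B1 (1.82 to 2.48). The log2 ratio of 1F4 over 1A2 was 0.52 (0.24 to 0.81), with 16 of 377 other windows at that separation higher, and that of 1B1 over 1F4 was -0.60 (-0.88 to -0.32).

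The highest point of the untreated profile lay 1 bin further on, at chr15:11833601-11852800, where LacO contact was 2.18 for 1A2, 3.96 for 1F4, 2.27 for 1B1 and 1.48 after degradation, on 102, 205, 111 and 34 reads. Here the ratio of 1F4 over 1A2 was 0.86 (0.51 to 1.22), and 2 of 371 other windows were higher. This window held the start of Npr3, at base 11835429, but lay mostly outside the gene. The windows 326.4 and 307.2 kb downstream lay in Npr3. Among the 39 windows with a mean of at least 50 reads, these 3 were the largest rises of 1F4 over 1A2. They were also the largest falls of 1B1 against 1F4, a contrast that shares the 1F4 library and is not independent. At 326.4 kb the values were 2.13, 2.96, 1.94 and 1.26, and at 307.2 kb 1.56, 2.16, 1.43 and 1.23. The 1F4 excess thus spanned about the first part of the gene and its upstream flank, and it was small at the next window outwards, 364.8 kb away, with 1.97, 2.03, 1.69 and 1.22. At the window after that, 384.0 kb away, the values were 1.88, 2.34, 1.99 and 1.25. There the log2 ratio of 1F4 over 1A2 was 0.31 (-0.002 to 0.64), an interval that includes 0.

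The 3 viewpoint bins shared this pattern. Their contact with the Npr3 start in 1F4 was 2.504 from the upstream neighbour, 3.49 from the LacO bin and 3.68 from the downstream neighbour, against 1.52, 2.35 and 2.86 in 1A2 and 2.06, 2.02 and 2.30 in 1B1. Along the domain, the contact in 1F4 was higher at LacO than at its neighbours. From 19.2 kb upstream, LacO and 19.2 kb downstream, the contact was 2.43, 3.22 and 2.66 in 1F4, 2.12, 2.24 and 2.07 in 1A2, and 1.74, 2.13 and 1.93 in 1B1. Both neighbours lay below the interval at LacO in 1F4 (2.87 to 3.61), both lay inside it in 1A2 (1.91 to 2.62), and in 1B1 (1.82 to 2.48) the upstream one alone lay below. After degradation it was 0.776, 1.13 and 1.80, with no maximum at LacO. Differences between the lines were not confined to LacO. The log2 ratio of 1F4 over 1A2 was 0.52 at LacO, 0.20 and 0.36 at 19.2 kb upstream and downstream, and 0.39 at 76.8 kb downstream. It was negative at 76.8 and 115.2 kb upstream and at 115.2 kb downstream. The ratio of 1B1 over 1F4 was -0.60 at LacO, -0.48 and -0.46 at 19.2 kb upstream and downstream, and -0.64 at 57.6 and 76.8 kb downstream. High contact with the Npr3 start was not particular to LacO: from 153.6 kb upstream of LacO, beside the boundary, it was 5.93 for 1A2, 7.08 for 1F4, 4.73 for 1B1 and 2.49 after degradation. At the band level, 1F4 stood 0.28 above 1A2 between 200 and 400 kb downstream (0.18 to 0.38) and only 1 of 391 viewpoints had a higher ratio. None of the other bands gave an interval of 1F4 over 1A2 that lay off 0.

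Over windows, 3 of 70 were at least 1.5-fold higher in 1F4 than in 1A2 (3.99% over the region) and 2 at least 1.5-fold lower (4.71%). The medians were 0.08 upstream and 0.04 downstream, against 0.00 over all windows. Among the 39 windows with a mean of at least 50 reads, the largest fall lay 307.2 kb upstream in Adamts12. It stood at 0.530 for 1A2 and 0.324 for 1F4 on 54 and 41 reads (log2 ratio -0.71, -1.33 to -0.10), and at 0.471 in 1B1.

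**Figure D4:**
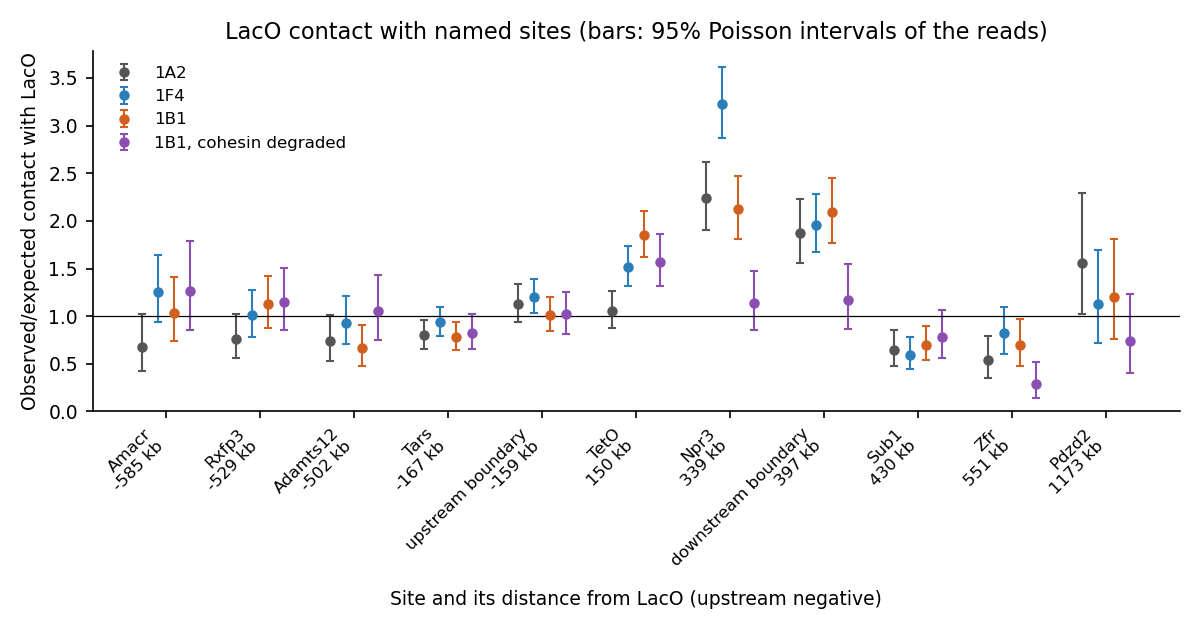
Observed/expected contact of LacO with TetO, both domain boundaries and the gene starts with a mean of at least 20 reads, ordered by position, with 1 point per library and 95% Poisson intervals of the reads. The Npr3 start stood at 3.22 for 1F4 and 1.13 after degradation; TetO stood at 1.85 for 1B1 and 1.05 for 1A2.

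The comparison of 1B1 with and without dTAG-13 asked which LacO contacts needed cohesin. Relative to the average at the same distance, LacO contacts stood higher on the upstream side, mostly beyond the boundary, and lower on the downstream side from TetO outwards. Of the 70 windows, 17 were at least 1.5-fold higher (14.2% over the region) and 12 at least 1.5-fold lower (12.4% over the region). These were 24.3% and 17.1% of the LacO windows, above the shares of the region, but this excess depended on the windows used. From the LacO bin alone, 2 of 30 were higher and 4 lower, against 11.1% and 14.4% of the region, and with targets of 1 bin 8 of 102 were higher and 14 lower, against 11.5% and 14.4%, so that the LacO shares then lay below those of the region. The counts are therefore not read as an excess at LacO. All 17 lay upstream, 16 of them beyond the boundary, and all 12 lay downstream, 9 of them from the boundary bin outwards. The median log2 ratio was 0.43 upstream and -0.37 downstream, against 0.03 over all windows. By interval, it was 0.68 beyond the upstream boundary, 0.25 in the domain upstream of LacO, -0.26 in the domain downstream and -0.71 from the downstream boundary bin outwards. In the domain downstream, 7 of 20 windows had a positive ratio, and in the domain upstream 7 of 8.

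The upstream rise is a statement relative to distance. On balanced signal scaled to the same sum but not divided by the expected value the median over all windows was -0.37. On that scale the upstream median was 0.08, the downstream median -0.85, and 1 window was at least 1.5-fold higher while 28 were lower (4.04% and 36.1% of all windows). On unbalanced reads the upstream median was -0.04 and the downstream one -0.99, against -0.38 over all windows. The sides stayed apart by 0.80 as reported, 0.94 without the expected value and 0.95 on reads, but the gap was smaller with other windows, at 0.46 from the LacO bin alone and 0.63 with targets of 1 bin or a minimum of 50 reads. These settings share the direction of the gap between the sides, not an absolute gain upstream.

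By bands, the ratio of degraded over untreated 1B1 was largest between 200 and 800 kb on the upstream side, at 0.37 (20 to 100 kb), 0.28 (100 to 200 kb), 0.66 (200 to 400 kb), 0.54 (400 to 800 kb) and 0.30 (800 to 1200 kb), with every interval above 0. On unbalanced reads, which are not relative to distance, the 4 outermost of these became -0.25, -0.02, -0.12 and -0.08. The median over all windows on reads was -0.38, and these bands lay above it. That median pools windows of all separations. No reference at the same distance is given on reads, so an upstream excess is not read from this. Among other viewpoints, 24 of 391 and 15 of 329 had higher ratios in the bands from 200 to 400 and 400 to 800 kb. Downstream the ratios were 0.06, -0.13, -0.45, -0.75 and -0.40 over the same bands, and the intervals of the 3 outermost lay below 0. In the downstream band from 400 to 800 kb, observed/expected was 0.768 for 1B1 (721 reads) and 0.457 after degradation (317 reads). The fall on that side was thus largest between 400 and 800 kb, in the first band beyond the boundary.

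**Figure D5:**
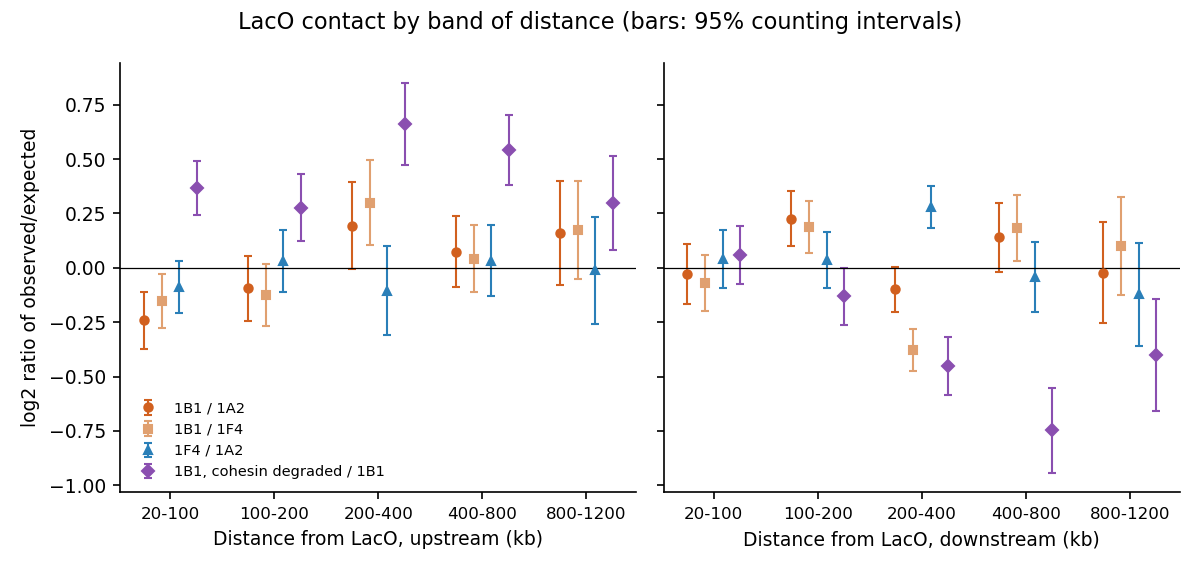
log2 ratio of the mean observed/expected of LacO in 5 bands of distance, upstream (left) and downstream (right), for the 4 contrasts, with 95% counting intervals. The ratio of degraded over untreated 1B1 lay above 0 in all upstream bands and reached -0.75 between 400 and 800 kb downstream. On unbalanced reads 4 of the upstream bands lay below 0 but above the median over all windows (-0.38). Between 200 and 400 kb downstream, 1F4 stood 0.28 above 1A2.

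The largest single rises among windows with at least 50 reads lay 211.2, 307.2 and 172.8 kb upstream. At 211.2 kb LacO contact was 0.454 for 1A2, 0.536 for 1F4, 0.436 for 1B1 and 0.845 after degradation, on 45, 67, 51 and 63 reads, with a ratio of 0.95 (0.40 to 1.52). The untreated libraries overlapped there, and the interval of the degraded one (0.649 to 1.08) lay above those of 1A2 and 1B1 and overlapped that of 1F4. The largest falls lay 518.4, 403.2 and 384.0 kb downstream. At 518.4 kb the values were 1.09, 1.08, 1.30 and 0.538, on 55, 70, 71 and 21 reads, with a ratio of -1.27 (-2.05 to -0.55), and all 281 other windows at that separation had a higher ratio. Again the untreated libraries overlapped, and the interval of the degraded one (0.333 to 0.822) lay below those of 1F4 and 1B1 and touched that of 1A2.

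Both boundaries and the Npr3 start were read in the same way. At the downstream boundary LacO contact was 1.87 for 1A2, 1.96 for 1F4, 2.09 for 1B1 and 1.17 after degradation, on 127, 169, 153 and 50 reads. The 3 untreated lines overlapped, and the ratio of degraded over untreated 1B1 was -0.84 (-1.33 to -0.37). At the Npr3 start that ratio was -0.91 (-1.37 to -0.46), with 360 of 377 other windows higher. At the upstream boundary, the values were 1.12, 1.20, 1.01 and 1.02, with a ratio of 0.01 (-0.40 to 0.41). That ratio was -0.46 without the expected value (-0.87 to -0.06), -0.63 on unbalanced reads (-1.04 to -0.23) and 0.26 with a target of 9 bins (0.04 to 0.47). Without the expected value and on reads, the median over all windows was itself -0.37 and -0.38. Both intervals included that median, so the negative sign is not read as a change at this boundary. The ratio at the downstream boundary was below 0 in all of these settings, at -1.54, -1.67 and -0.65. In the untreated lines, LacO contact was higher at the downstream boundary than at the upstream one, with no overlap of the intervals within any line.

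Of the 14 gene starts followed, 8 had a mean of at least 20 reads with LacO. Upstream, the start of Tars, beside the boundary, stood at 0.798 for 1A2, 0.935 for 1F4, 0.778 for 1B1 and 0.824 after degradation. Adamts12 stood at 0.740, 0.931, 0.669 and 1.05, and Rxfp3, a receptor of relaxin-family peptides, at 0.764, 1.01, 1.12 and 1.14. None of the intervals of these starts in the degradation contrast excluded 0. Amacr, an enzyme of branched-chain fatty acid oxidation, stood at 0.673, 1.25, 1.03 and 1.26 on 22, 52, 39 and 31 reads; its ratio of 1F4 over 1A2 was 0.90 (0.15 to 1.69), which on the bin of the start alone was -0.03.

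Downstream of the domain, the start of Sub1 stood at 0.647, 0.595, 0.6997 and 0.784, with a degradation ratio of 0.16 (-0.44 to 0.75), an interval that includes 0. Zfr, which codes for a zinc finger RNA-binding protein, stood at 0.538 for 1A2, 0.824 for 1F4, 0.693 for 1B1 and 0.290 after degradation, on 25, 47, 33 and 11 reads, with a degradation ratio of -1.25 (-2.39 to -0.23). The start of Pdzd2, a gene of a protein with PDZ domains, stood at 1.56, 1.13, 1.20 and 0.735 on 14 to 26 reads, with intervals that overlapped in all libraries. Under the minimum were Rad1 and Rai14 upstream and Mtmr12, Golph3, Drosha and Cdh6 downstream, with 4 to 20 reads per library. Contact of LacO with Drosha, the nuclease that opens microRNA processing, rested on 6 to 10 reads, and the intervals of all its ratios included 0. Among these starts, the degradation ratio was 1.44 for Cdh6, a gene of a cadherin, on 6 and 18 reads (0.05 to 3.06) and -1.46 for Mtmr12, a gene of the myotubularin family, on 20 and 5 reads (-3.23 to -0.01). Both are given as values only, being under the read minimum.

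Local maxima of the mean untreated profile mark windows whose observed/expected contact exceeded that of their surroundings, and each side had 8 of them. They are not the windows of most contact, which lie nearest to LacO, nor always above the average at their distance. Downstream, the 5 highest maxima lay at 345.6 kb (the Npr3 start), 243.2 kb, 153.6 kb (TetO), 57.6 kb and 1049.6 kb (Pdzd2). The maximum at 243.2 kb, in sequence with no annotated protein-coding gene, stood at 1.53, 1.72, 1.51 and 1.23, and that at 57.6 kb at 1.25, 1.44, 1.22 and 1.28. At both, all intervals of the contrasts included 0. Upstream, the highest maximum lay 147.2 kb away, just inside the boundary, at 1.26, 1.23, 1.09 and 1.22. The next ones lay 601.6 kb away in C1qtnf3 (0.898, 1.36, 1.28 and 1.58), 556.8 kb away in Slc45a2 (0.955, 1.24, 1.14 and 1.52), 659.2 kb away (0.758, 0.907, 1.17 and 1.61) and 832.0 kb away (0.761, 0.726, 1.19 and 1.15). The downstream maximum at 1049.6 kb stood at 1.29, 1.18, 1.31 and 0.616 on 20, 22, 25 and 11 reads, whose degradation ratio was -1.09 (-2.26 to -0.01). The far upstream maxima rested on 16 to 62 reads per library, and none of the intervals of their contrasts excluded 0.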

How the data were processed

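Tiled Capture-C maps of 4 libraries were used, 1 per group. Per the study's methods, the authors mapped reads to mm9 with HiC-Pro 2.11.4, kept valid pairs within the targets, binned them at 6.4 kb and balanced the bins (ICE). The deposited value of each bin pair is this balanced signal. The deposited bin table holds other data, the coordinates of each bin. Balancing equalises bin sums and hides the depth, so the reads behind each value were recovered as signal divided by 1 factor per bin. The quotient lay within 0.05 of a whole number for 100% of values, and the largest deviation was 0.00867 reads.

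Observed/expected values, windows and intervals were computed with Python 3.11.15, NumPy 2.4.6 and SciPy 1.17.1, and tested on simulated maps. Gene positions came from GENCODE vM1. Poisson and Clopper-Pearson intervals and exact conditional intervals of ratios are at 95%. Windows needed a mean of 20 reads, and a change was counted from 1.5-fold. Boundaries were minima of insulation in squares of 20 bins. Sites named were TetO, the boundaries, 14 gene starts, the 5 highest maxima per side and the 3 largest changes per contrast and direction. Members and lists were chosen with earlier results of these data known. Other viewpoint and target sizes, scalings, expected values, read minima and folds were tried as alternatives. A map of unedited cells was not used here.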

Additional observations from a re-analysis of the deposited data

How the results depend on the processing

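Each alternative value was labelled as the same, moved or reversed, with a tolerance that depended on the kind of value. For counts of windows and for medians, this tolerance was not the counting error of reads. Of 271 alternative values of the main results, 176 were labelled the same, 94 moved and 1 reversed. Of 432 for single sites, bands and shares of the same kind, the numbers were 378, 48 and 6. Among the 108 main values, which include counts and shares, 28 were log2 ratios or medians of them whose interval excluded 0. Of the 170 alternatives of these, 163 kept the sign. The cause of a shift was not tested unless the alternative's construction gives it. No paired analysis was possible because each group had 1 library, and no library could be left out for the same reason.

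Without division by the expected value, degraded over untreated 1B1 had 1 window higher and 28 lower of 70 (4.04% and 36.1% of all windows of the region), medians of 0.085 upstream and -0.85 downstream, and ratios of -0.68 at TetO, -0.46 at the upstream boundary, -1.54 at the downstream boundary and -0.13 between 100 and 200 kb upstream. 1B1 over 1F4 then had 11 higher and 1 lower (11.6% and 1.53% of all), and 1F4 over 1A2 1 higher and 4 lower (2.35% and 7.30%). On unbalanced reads the degradation counts were 0 and 29 (2.98% and 37.2% of all), the medians -0.043 and -0.99, the site ratios -0.87, -0.63 and -1.67, and the upstream bands from 100 kb outwards -0.25, -0.022, -0.12 and -0.078. For degradation, the median over all windows was -0.38 on reads and -0.37 without the expected value. The other counts on reads were 10 and 2 for 1B1 over 1F4 (10.2% and 0.726%), 1 higher for 1F4 over 1A2 (1.51%) and 1 lower for 1B1 over 1A2 (1.52%), whose downstream median was 0.056. Shares of reads upstream were 41.6%, 39.8%, 40.02% and 50.8% for 1A2, 1F4, 1B1 and the degraded library, and shares in the domain 68.1%, 69.9%, 64.0% and 64.4%. At 6 or more bins apart, the domain shares of signal were 65.2%, 68.1%, 61.0% and 59.8%, and the upstream shares of the untreated lines 38.9%, 36.8% and 37.4%. With the expected value taken as a median, 10 windows were higher after degradation (9.86% of all) and the upstream median was 0.31.

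From the LacO bin alone, which left 30 windows, 1B1 over 1A2 had 1 higher and 0 lower (5.44% and 4.65% of all), and degradation 2 and 4 (11.1% and 14.4%). The TetO ratios were 1.18 for 1B1 over 1A2 and 0.95 for 1F4 over 1A2, the downstream boundary ratio of 1B1 over 1F4 was 0.49, the medians of 1F4 over 1A2 were -0.21 upstream and 0.12 downstream, the upstream degradation median was 0.19, and the domain share after degradation was 64.8%. With 2 bins either side, lower windows numbered 2 of 121 for 1B1 over 1F4, 8 for 1F4 over 1A2 and 20 for degradation (4.08%, 4.96% and 12.6% of all). With target windows of 1 bin, 5 of 102 were higher and 8 lower for 1B1 over 1F4 (5.12% and 4.78% of all), 9 higher for 1F4 over 1A2 (4.77%), 1 lower for 1B1 over 1A2 (4.74%) and 8 higher for degradation (11.5%). The upstream median of 1B1 over 1A2 was then -0.13. The downstream boundary ratio of 1B1 over 1F4 was 0.51, the upstream boundary ratio of degradation -0.50 and the Amacr ratio of 1F4 over 1A2 -0.029. With 9 bins, 8 of 49 windows were higher for degradation (12.3% of all), and 0, 2 and 1 were lower for 1B1 over 1A2, 1B1 over 1F4 and 1F4 over 1A2 (3.85%, 3.59% and 4.49%). The TetO ratios were 0.48 for 1B1 over 1A2 and 0.12 for 1F4 over 1A2, and the downstream median of 1B1 over 1A2 was 0.085. Corrected for the allele without arrays, with 1A2 standing in for it, the TetO ratio of 1B1 over 1A2 was 1.33.

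Counts followed the thresholds. In the order 1B1 over 1A2, 1B1 over 1F4, 1F4 over 1A2 and degradation, a minimum of 10 reads gave 24, 17, 16 and 26 higher and 11, 11, 14 and 29 lower of 132 windows, with a downstream median of 0.078 for the first. The shares of all windows were 10.4%, 10.5%, 8.71% and 16.8% higher and 8.39%, 8.15%, 9.48% and 15.5% lower. A minimum of 50 reads gave 2, 1, 1 and 4 higher and 0, 3, 1 and 5 lower of 39, against 1.63%, 1.54%, 0.968% and 9.51% higher and 1.37%, 1.65%, 1.12% and 10.8% lower of all. At 2-fold, 1, 0, 0 and 0 were higher and 1, 0, 0 and 4 lower of 70, against 0.733%, 0.860%, 0.561% and 3.30% higher and 0.612%, 0.491%, 0.796% and 3.68% lower of all. Depth limited the comparison to 70 of the 150 tiled windows, those with a mean of at least 20 reads.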
